A study of Mus musculus with 6 samples.

Results

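The genes described here are 5 retrogenes that the mouse testis uses and the 5 X-linked genes from which they were copied. A retrogene arises when a spliced mRNA is reverse transcribed and inserted elsewhere in the genome, so it usually lacks the parent's introns and has to acquire a promoter. During meiosis in males the X chromosome is silenced in spermatocytes, and autosomal copies of X-linked housekeeping genes are known for supplying the same protein in those cells. The pairs were Pgk2 and Pgk1, Pdha2 and Pdha1, Utp14b and Utp14a, Cstf2t and Cstf2, and Cetn1 and Cetn2, with the retrogene named first. Members were taken by name: every probe set whose only annotated gene symbol was one of these 10 names, with older synonyms counted. This gave 18 probe sets of 45037 that are not array controls, for 10 genes of 18193 with such a probe set. All 10 genes had at least 1 probe set, 6 in all for the retrogenes and 12 for the parents. The RefSeq gene table (GRCm38.p6) placed the 5 parents on X and the retrogenes on chromosomes 17 (Pgk2), 3 (Pdha2), 1 (Utp14b), 19 (Cstf2t) and 18 (Cetn1).

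The samples were testes of male mice at postnatal day 21, 3 from Nxf2 knockout (KO) and 3 from wild-type (WT) mice, measured on 1 Affymetrix array each. Nxf2 is an X-linked germ cell relative of the general mRNA export receptor gene Nxf1. The study states that testis weight was alike in both genotypes at this age, and speaks of 3 pairs of testes without saying that the replicate numbers mark the pairs. The strain, the design of the deleted allele and the number of animals behind each sample are not given in the sources used here. P-values therefore measure the spread between these arrays, and 3 arrays a group limit the precision. The values are deposited MAS5 signals, a linear intensity per probe set, and fold changes are on the log2(signal + 7) scale, KO minus WT.

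On the KO arrays the only Nxf2 probe set read 116.0, 106.2 and 130.8, against 374.4, 340.4 and 385.9 on the WT arrays. In this whole-organ RNA, genes of round spermatids were lower in KO: 8 of the 10 listed passed the filter on mean signal and were called lower. Of these 8, Spaca3 and Catsper3 had KO means under the dim limit of 20.5, the 40th percentile of probe set means (11.9 and 11.01) and passed the filter through their WT signal (79.2 and 43.3). The KO mean of Acrv1 was at this limit (20.57, against 136.8 in WT). The summed signal of all 10 listed was 2240.3 to 2412.9 in KO and 3234.8 to 3712.9 in WT. For comparison with the counts given here, 7.37% of all 12971 tested genes were called lower and 2.98% higher, by the probe set of highest mean. Of 10 pachytene spermatocyte genes 4 fell, and all 10 had lower means (sum 7815.1 to 9128.9 in KO, 9439.5 to 9912.2 in WT). Undifferentiated spermatogonial genes were higher, with 5 of 8 tested rising, while Gfra1 (log2 fold change -0.15) and Id4 (-0.15) had lower means and were not called (sum 3308.3 to 3362.4 in KO, 2738.3 to 2773.1 in WT). Sertoli cell genes (3 of 9 rose, sum 4880.2 to 5379.9 against 4204.6 to 4496.9) and Leydig cell genes (2 of 6 rose, sum 2684.7 to 3941.8 against 2224.1 to 2563.3) were higher as well. No macrophage gene of 9 was called by limma, 5 had an unadjusted p under 0.05, all higher, and their sum was 2189.7 to 3335.5 in KO and 1503.6 to 2053.2 in WT, highest in KO replicate 3. Of 3 red blood cell genes on the array, 2 were dim and the summed signal was 51.1 to 110.5 in KO and 31.6 to 112.7 in WT. Fewer cells of a type and less RNA per cell cannot be told apart in such samples, and the part of these shifts in the results given here was not tested.

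The stretches before the annotated starts of the glycolytic and the pyruvate dehydrogenase pairs show how far those of the retrogenes differ from the parents'. The 250 bases before each start are given 5′ to 3′ from RefSeq (GRCm38.p6), with every CpG dinucleotide in capitals. The Pgk2 stretch is chr17:40208610-40208859, minus strand, that of Pgk1 chrX:106186850-106187099, plus strand, that of Pdha2 chr3:141212356-141212605, minus strand and that of Pdha1 chrX:160138431-160138680, minus strand. Each ends 1 base before the annotated start.
Pgk2: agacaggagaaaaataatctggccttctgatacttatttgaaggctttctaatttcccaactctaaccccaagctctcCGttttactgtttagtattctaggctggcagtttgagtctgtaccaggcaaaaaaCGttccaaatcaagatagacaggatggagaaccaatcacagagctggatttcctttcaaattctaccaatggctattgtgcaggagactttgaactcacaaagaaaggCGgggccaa
Pgk1: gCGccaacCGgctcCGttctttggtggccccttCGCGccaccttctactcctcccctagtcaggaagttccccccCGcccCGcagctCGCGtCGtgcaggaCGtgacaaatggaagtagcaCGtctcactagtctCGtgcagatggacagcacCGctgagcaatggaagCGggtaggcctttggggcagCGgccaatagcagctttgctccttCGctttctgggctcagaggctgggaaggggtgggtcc
Pdha2: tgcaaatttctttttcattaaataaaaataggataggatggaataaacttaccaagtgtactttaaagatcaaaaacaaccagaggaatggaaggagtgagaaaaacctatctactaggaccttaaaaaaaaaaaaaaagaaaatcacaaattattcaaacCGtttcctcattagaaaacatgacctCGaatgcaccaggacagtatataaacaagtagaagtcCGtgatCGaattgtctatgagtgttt
Pdha1: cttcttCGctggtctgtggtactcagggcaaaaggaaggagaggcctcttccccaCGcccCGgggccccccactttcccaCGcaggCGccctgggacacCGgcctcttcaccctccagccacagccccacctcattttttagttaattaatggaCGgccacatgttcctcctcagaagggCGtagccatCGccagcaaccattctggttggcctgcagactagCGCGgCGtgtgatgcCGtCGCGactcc

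The Pgk2 and Pdha2 stretches were poor in CpG, with 3 and 4 sites, and those of their parents were rich, with 17 in Pgk1 and 15 in Pdha1. The G+C content was 42.0% for Pgk2 and 31.6% for Pdha2, against 62.8% and 61.6% for Pgk1 and Pdha1. Across 32841 stretches of this length in the promoter table the median was 6 CpG sites and 52.4% G+C. Cstf2t and Utp14b did not share the low content: Cstf2t had 19 CpG sites and Utp14b had 37, which is more than in 97.8% of all stretches. In the RefSeq table Cstf2t overlaps Prkg1 and Utp14b overlaps Acsl3, and whether these stretches serve the retrogenes alone was not tested. The parents Utp14a, Cstf2 and Cetn2 had 17, 17 and 16. Stretches of 9 of the 10 genes were used. That of Cetn1 was left out of the search, so the comparison lacks this retrogene. Short motifs were searched on both strands. CCAAT was found at 2 places in the Pgk2 stretch, at 4 in Cetn2, at 1 each in Cstf2t, Pgk1 and Utp14a and in none of the other 4, and in 33.9% of all stretches. GGGCGG, the GC box, was found once each in Cstf2t, Pgk1, Utp14a, Cstf2 and Cetn2, and in 32.7% of all stretches. TATAAA was found only in Pdha2 among the 9, and in 12.4% of all. The palindromic cAMP response element TGACGTCA was found in none of the 9 and in 1.55% of all. The shorter TGACG, which the palindrome contains, was found in Utp14a, Cstf2 and Cetn2 only, and in 17.8% of all.

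The retrogenes had lower and the parents higher signals in KO testes. All 6 retrogene probe sets had a lower fitted value in KO, with log2 fold changes of -0.56 to -0.13, and the 11 parent probe sets bright enough to test all had a higher one, from 0.08 to 0.46. Of the 17 tested probe sets 3 were called by limma at an adjusted p under 0.05 over all probe sets: Pgk2 and Utp14b fell, and 1 of 3 Pgk1 probe sets rose. The share called over all tested probe sets was 7.49%, with 5.23% lower and 2.26% higher. Of all calls 69.9% were lower in KO, and 84.8% with median centring. This share depended on the fit: it was 51.7% with replicate number as a block and 47.7% with weights per array. Over all tested probe sets the fitted value was lower in 43.1% and higher in 56.9%. The KO arrays all lay below the WT arrays in 14.8% and all above in 19.1%. The retrogene probe sets had a lower fitted value under each of 15 other settings. The parents' kept the higher one with 1 exception, a dim Cstf2 probe set described further on. Changing the dim filter, leaving out the intensity trend or taking replicate number as a block does not move a fitted value. Those settings are therefore no check on its direction. The number of called members was 1 without KO replicate 3 and 1 without WT replicate 1.

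**Figure D1:**
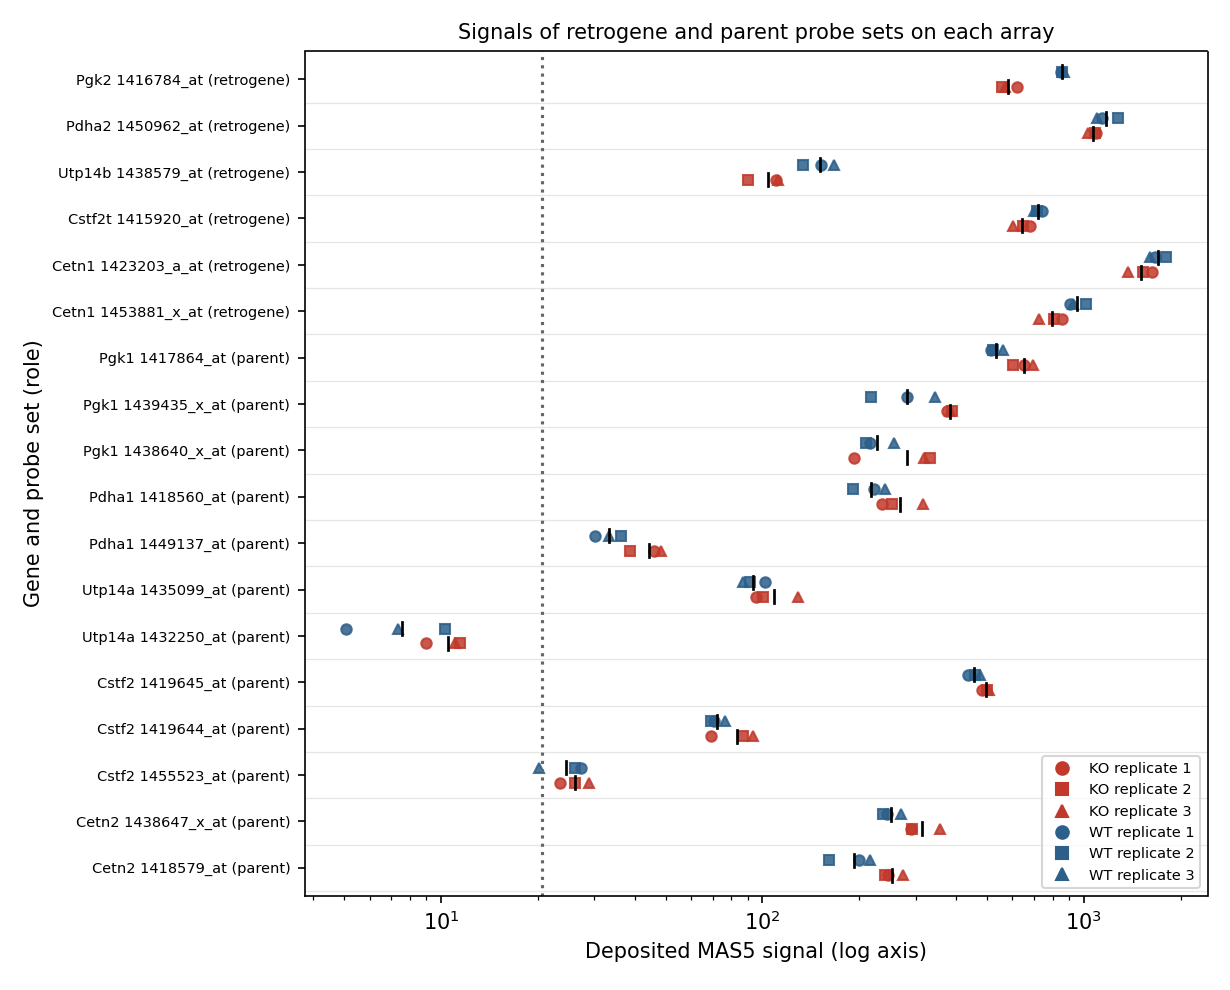
Deposited MAS5 signal (log axis) of the 18 probe sets on each array, WT above and KO beneath in each row, with vertical bars at the group means and a dotted line at the dim limit of 20.5. The KO points lie left of the WT points in 5 of 6 retrogene rows and right of them in 6 of 11 tested parent rows. All KO arrays lay below all WT arrays in 16.1% of tested autosomal probe sets, and above them in 52.1% of tested X-linked ones.

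Pgk2 encodes the phosphoglycerate kinase of male germ cells, an enzyme of the ATP-yielding part of glycolysis that sperm need for motility. Its only probe set (1416784_at) read 620.1, 555.0 and 568.3 on the KO arrays and 847.7, 853.6 and 868.5 on the WT arrays. All KO arrays lay well under all WT arrays, and the WT arrays were close to each other. The mean fell from 856.6 ± 10.7 to 581.1 ± 34.4 (SD, n = 3 each), 1.47-fold lower, or -0.56 ± 0.0572 on the log2 scale (SE, limma, adjusted p = 0.0033). This was rank 14 by p of all tested probe sets, and Pgk2 was called under all 15 other settings (adjusted p 2.59e-05 to 0.0327).

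Pgk1, the parent, encodes the same enzyme in most other cells. Its probe set 1417864_at read 651.2, 602.1 and 694.8 in KO and 513.8, 522.2 and 562.5 in WT. The groups did not overlap, and the mean rose from 532.8 ± 26.0 to 649.3 ± 46.4 (SD, n = 3 each), or by 0.28 ± 0.0687 on the log2 scale (SE, limma, adjusted p = 0.0376). This call held under 7 of 15 other settings (adjusted p 0.00255 to 0.151). It was lost with median centring (adjusted p = 0.117), without the dim filter (0.0742) or the intensity trend (0.104), and without KO replicate 1 (0.0774), KO replicate 3 (0.094), WT replicate 1 (0.151), WT replicate 2 (0.0914) or WT replicate 3 (0.0514). The other two Pgk1 probe sets carry the suffix _x_at, by which the maker marks probes that also match other transcripts. Probe set 1439435_x_at read 375.4, 389.0 and 382.6 in KO and 280.9, 218.3 and 345.1 in WT (log2 fold change 0.46, limma, adjusted p = 0.0672). The KO arrays were close to each other here, and WT replicate 2 was the lowest. The value was 0.29 without WT replicate 2, and 0.61 and called without WT replicate 3 (limma, adjusted p = 0.0231). Probe set 1438640_x_at had 193.0 in KO replicate 1, under every WT value (210.4 to 257.3), while KO replicates 2 and 3 read 331.6 and 318.4. Its log2 fold change of 0.26 (limma, adjusted p = 0.362) was 0.50 and called without KO replicate 1 (adjusted p = 0.0373), 0.12 without KO replicate 2 and 0.15 without KO replicate 3. The Pgk1 probe sets thus shared a direction in their means but not in every array.

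Pdha2 encodes the testis form of the E1 alpha subunit of pyruvate dehydrogenase, which feeds pyruvate into the citric acid cycle, and Pdha1 encodes the form of other tissues. Pdha2 (1450962_at) read 1094.4, 1084.8 and 1032.5 in KO and 1138.7, 1278.5 and 1098.7 in WT. The groups were separated by the narrow gap between KO replicate 1 and WT replicate 3. The log2 fold change was -0.13 ± 0.0593 (SE, limma, adjusted p = 0.189) and was not called under any of 15 other settings (adjusted p 0.128 to 0.474). It was -0.06 without WT replicate 2 and -0.08 with array weights. Pdha1 (1418560_at) read 236.2, 253.3 and 315.9 in KO and 222.7, 190.7 and 239.8 in WT. KO replicate 3 was the highest and KO replicate 1 lay under WT replicate 3 (log2 fold change 0.29, limma, adjusted p = 0.157), and the value was 0.17 without KO replicate 3. A second Pdha1 probe set (1449137_at) read 38.7 to 48.4 in KO and 30.0 to 36.3 in WT (log2 fold change 0.35, adjusted p = 0.139, limma). It did not overlap between the groups. Its value was 0.21 with a pseudocount of 39.

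Utp14b and Utp14a encode a component of the small subunit processome, which makes the small ribosomal subunit. Utp14b is the gene mutated in the juvenile spermatogonial depletion (jsd) mouse, in which spermatogonia stop differentiating. Utp14b (1438579_at) read 110.2, 90.4 and 111.8 in KO and 151.9, 133.8 and 166.6 in WT. No KO array reached the lowest WT array, and replicate 2 was the lowest in both groups. The mean fell from 150.8 ± 16.5 to 104.1 ± 11.9 (SD, n = 3 each), 1.42-fold lower, or -0.51 ± 0.123 on the log2 scale (SE, limma, adjusted p = 0.037). Over 15 other settings the adjusted p was 0.00122 to 0.137 and the call held under 8. It was lost without KO replicate 1 (0.0593), KO replicate 2 (0.0943), KO replicate 3 (0.0554), WT replicate 1 (0.137) or WT replicate 3 (0.0878), without the dim filter (0.071) and without the intensity trend (0.0653).

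In the RefSeq table Utp14b overlaps Acsl3, a fatty acid activating enzyme gene, and the 3 Acsl3 probe sets were not called. The Acsl3 probe set of highest mean (1452771_s_at) read 452.2 to 522.1 in KO and 445.9 to 504.3 in WT, a log2 fold change of 0.02 (limma, adjusted p = 0.865). The 3 had no stable direction: their signs turned under 3, 3 and 1 of the other settings. Utp14a (1435099_at) read 95.8, 100.3 and 128.9 in KO and 102.2, 91.5 and 87.1 in WT. These groups overlapped, with KO replicate 3 alone above all WT arrays (log2 fold change 0.19, limma, adjusted p = 0.375). The value was 0.06 without KO replicate 3 and 0.02 with array weights. The other Utp14a probe set (1432250_at) was under the dim limit of 20.5, at 8.94 to 11.5 in KO and 5.06 to 10.3 in WT, and was not tested.

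Cstf2t and Cstf2 encode the RNA-binding subunit of the cleavage stimulation factor, which helps to place the poly(A) site of mRNAs, and male germ cells use the Cstf2t form. Cstf2t (1415920_at) read 678.8, 645.7 and 602.4 in KO and 739.3, 715.6 and 699.5 in WT. The groups did not overlap, but the log2 fold change of -0.16 ± 0.0598 (SE, limma) did not pass (adjusted p = 0.118). It was called under 1 of 15 other settings (adjusted p 0.0128 to 0.312), that with array weights. Cstf2t overlaps Prkg1, a protein kinase gene whose probe set of highest mean (1444232_at) had a log2 fold change of 0.18 (limma, adjusted p = 0.194). Cstf2 (1419645_at) read 483.3, 499.3 and 507.3 in KO and 436.5, 458.7 and 475.2 in WT. Each KO array lay above each WT array, with a log2 fold change of 0.12 (limma, adjusted p = 0.234), which was 0.07 with median centring. The other Cstf2 probe sets, 1419644_at and 1455523_at, overlapped between the groups, at 69.0 to 93.3 in KO and 69.0 to 76.7 in WT for the first. Its log2 fold change of 0.18 (limma, adjusted p = 0.402) was 0.30 without KO replicate 1 and 0.10 without KO replicate 3. The second read 23.4 to 28.9 in KO and 20.2 to 27.2 in WT, near the dim limit. Its log2 fold change of 0.08 (limma, adjusted p = 0.767) changed sign to -0.05 with array weights and to -0.02 without WT replicate 3.

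Cetn1 and Cetn2 encode centrins, small calcium-binding proteins of centrioles and of the basal bodies of cilia and flagella. Cetn1 is used in tissues with modified cilia such as testis and retina. Its probe set 1423203_a_at read 1626.1, 1533.8 and 1368.9 in KO and 1670.8, 1808.7 and 1610.5 in WT. KO replicate 1 overlapped with WT replicate 3, and the log2 fold change was -0.17 ± 0.0646 (SE, limma, adjusted p = 0.124), or -0.10 without KO replicate 3. Probe set 1453881_x_at read 857.1, 809.5 and 728.1 in KO and 907.3, 1014.1 and 926.5 in WT, with no overlap (log2 fold change -0.25, limma, adjusted p = 0.0549). KO replicate 3 was the lowest in both. The second was called under 5 of 15 other settings (adjusted p 0.0233 to 0.144), among them quantile normalization (adjusted p = 0.0399) and the fit without KO replicate 1 (0.0426), and the first under 1 (adjusted p 0.0491 to 0.334). Cetn2 read 289.7, 293.0 and 356.9 in KO and 244.4, 237.5 and 270.7 in WT by 1438647_x_at. It read 245.2, 240.2 and 273.7 in KO and 200.4, 161.1 and 216.1 in WT by 1418579_at. Neither overlapped between the groups, with log2 fold changes of 0.31 and 0.39 (limma, adjusted p = 0.0827 and 0.0664).

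The retrogene-to-parent ratio was then formed within each array from the tested probe set of highest mean of each gene, so that a factor common to an array drops out almost wholly. Only the change of a ratio is read, since the signals of different probe sets are not on 1 scale. All 5 ratios were lower in KO, as were 74.8% of all ratios of an autosomal to an X-linked tested gene. The Pgk2/Pgk1 ratio in KO was 56.0% of that in WT, a change of -0.84 on the log2 scale (array SD 0.114 in KO and 0.0511 in WT, n = 3 each). Relative to the WT mean its values were -0.75, -0.80 and -0.97 in KO and 0.04, 0.02 and -0.06 in WT, a wide gap between the groups.

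The Utp14b/Utp14a ratio changed by -0.70, with -0.46, -0.79 and -0.84 in KO and -0.11, -0.13 and 0.24 in WT. The Cetn1/Cetn2 ratio changed by -0.48, with -0.26, -0.36 and -0.81 in KO and 0.01, 0.17 and -0.18 in WT, and by -0.31 without KO replicate 3. The Cstf2t/Cstf2 ratio had the smallest change of the 5, -0.28, with -0.16, -0.28 and -0.40 in KO and 0.11, -0.01 and -0.09 in WT. In these 3 pairs and in Pgk2/Pgk1 every KO array lay below every WT array. The Pdha2/Pdha1 ratio changed by -0.42, but KO replicate 1 (-0.22) lay just above WT replicate 3 (-0.23), so the groups overlapped. This change was -0.27 without KO replicate 3 and -0.26 without WT replicate 2.

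By an exact permutation test over the 6 arrays (two-sided) p was 0.1 for the 4 separated ratios, the smallest that 3 against 3 can give, and 0.2 for Pdha2/Pdha1. Adjusted over the 5 pairs (Benjamini-Hochberg) these were 0.125 and 0.2 by the same exact test, so the design could not bring any of them under 0.05. The direction did not depend on the probe set: all 13 combinations of a retrogene with a parent probe set had a lower ratio in KO (-1.01 to -0.24), and 10 of them separated the groups. The 13 reuse the same 5 pairs and 6 arrays. Of all ratios of an autosomal to an X-linked tested gene 74.8% were lower and 35.7% separated the groups in this direction. KO replicate 3 had the lowest ratio in all 5 pairs. It also had the highest summed macrophage (3335.5) and Leydig (3941.8) and the lowest summed pachytene signal (7815.1) of the KO arrays. The part of these in the ratios was not tested. Without KO replicate 3 the 5 changes were -0.77, -0.27, -0.62, -0.22 and -0.31, in the order Pgk2, Pdha2, Utp14b, Cstf2t and Cetn1.

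**Figure D2:**
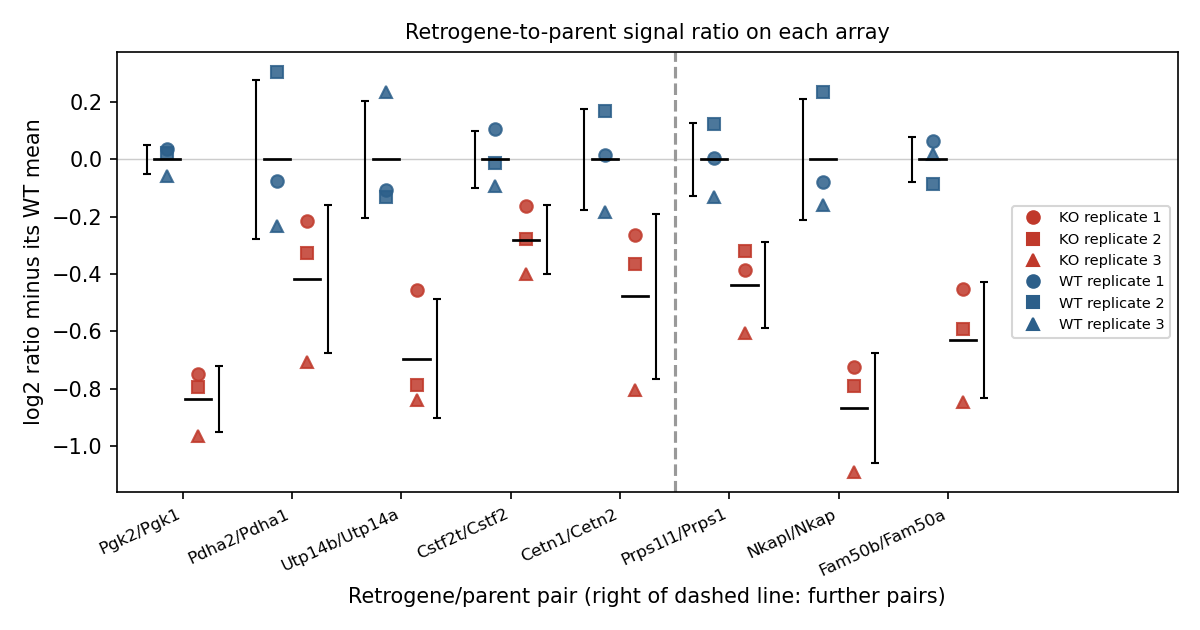
Log2 retrogene-to-parent signal ratio on each array minus the mean of the WT arrays of that pair, with horizontal bars at the group means and error bars of 1 SD (n = 3 each). The KO points of Pgk2/Pgk1 sit between -0.97 and -0.75, apart from the WT points at -0.06 to 0.04, while those of Pdha2/Pdha1 overlap with WT.

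How far the members stood out was read against the chromosomes they lie on. The parents moved as most of the X chromosome did. Of 726 tested X-linked probe sets 92.1% had a higher fitted value in KO, with a median log2 fold change of 0.245, and in 52.1% all KO arrays lay above all WT arrays. Of the 11 parent probe sets 6 were separated in this way, with a median of 0.28, and the 1 called compares with 8.4% of X-linked probe sets called higher. The parents' higher signals were therefore at the level of the X-linked background. Among 22149 autosomal probe sets the median was 0.03, 44.7% had a lower fitted value and 16.1% had all KO arrays below all WT arrays, as 5 of the 6 retrogene probe sets did. The retrogenes' median was -0.21, and the 2 called of 6 compare with 5.72% of autosomal probe sets called lower. The 10 listed pachytene spermatocyte genes, by 1 probe set each, were near this, with a median of -0.198, all 10 lower and 4 called. A lower signal was therefore not particular to the retrogenes, and the part of the cell types in it was not tested.

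The same reading was made for the ratios. Among all 5347485 ratios of 1 of 12465 tested autosomal genes to 1 of 429 tested X-linked genes, 74.8% were lower in KO and 35.7% separated the groups in this direction, against 4 of the 5 retrogene pairs. Ratios that share a gene are not independent, so this share is a description. The median of the X-linked probe sets was 0.19 to 0.27 over the other settings, and 0.19 without KO replicate 3.

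**Figure D3:**
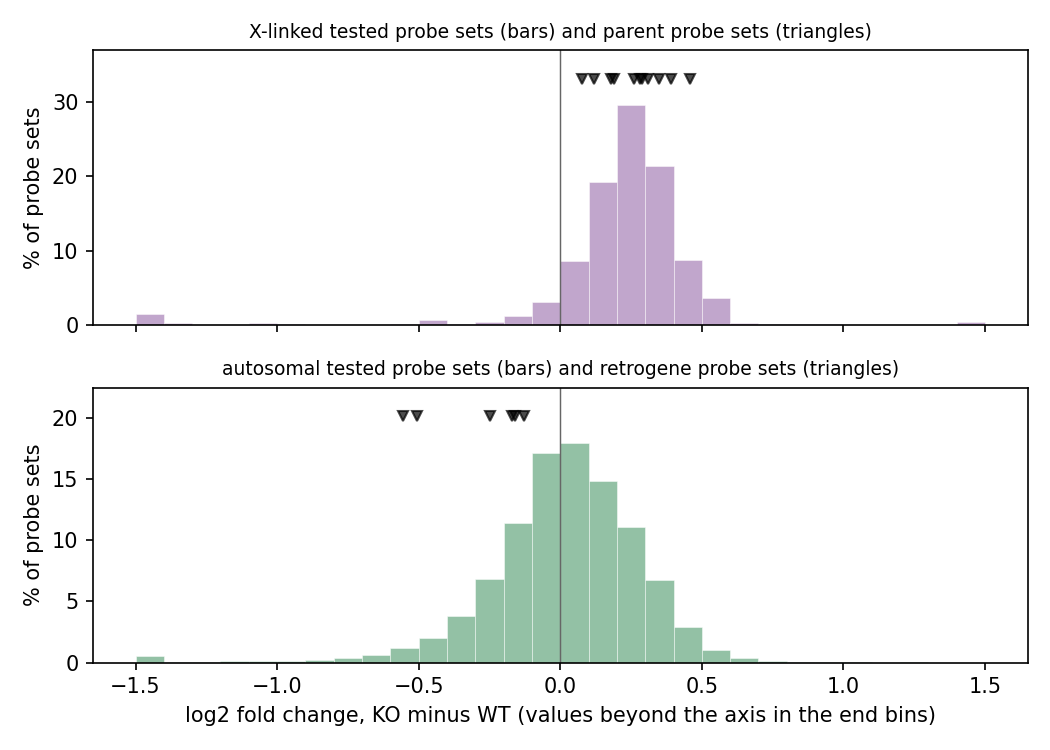
Log2 fold changes (KO minus WT) of tested X-linked probe sets with the 11 parent probe sets as triangles (top), and of autosomal probe sets with the 6 retrogene probe sets as triangles (bottom), as percent of probe sets per bin. The parents lie within the X-linked distribution around its median of 0.245, and the retrogenes lie left of the autosomal median of 0.03.

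Other autosomal retrogenes of X-linked parents were taken from a list of 9 pairs, of which 3 had both genes tested. Nkapl encodes a germ cell transcriptional regulator. It read 365.8, 371.1 and 326.0 in KO and 514.9, 578.3 and 471.4 in WT, and fell by 0.55 on the log2 scale (limma, adjusted p = 0.00905). Gk2, a glycerol kinase of spermatids, read 1147.4, 1112.4 and 1010.9 in KO and 1305.9, 1446.5 and 1287.7 in WT, and fell by 0.30 (limma, adjusted p = 0.0199). Both groups of arrays were clearly apart in these genes, and both calls were lost without WT replicate 1 (adjusted p = 0.0568 and 0.0744 by limma). That of Gk2 was also lost without the dim filter (0.054) and without the trend (0.0958). Prps1l1, a phosphoribosyl pyrophosphate synthetase, had a log2 fold change of -0.23 (limma, adjusted p = 0.0502; 0.0295 without KO replicate 1), Fam50b one of -0.31 (adjusted p = 0.151) and Rpl39l, a ribosomal protein gene, one of -0.06 (adjusted p = 0.532). Rpl39l turned to 0.04 with array weights and was -0.01 without KO replicate 3. The 2 called of these 5 retrogene probe sets compare with 5.72% of autosomal probe sets called lower. The tested parents of the list had higher means in KO: 8 probe sets of Nkap, Rbmx, Prps1 and Fam50a had log2 fold changes of 0.21 to 0.48, and all 8 separated the groups. Rbmx is the parent of Rbmxl2, and the parents of Gk2 and Rpl39l were not tested. Of all tested X-linked probe sets 92.1% were higher and 52.1% were separated in this way. By limma none of these 8 was called, and 7 had an unadjusted p under 0.05. The ratios changed by -0.87 for Nkapl/Nkap, -0.63 for Fam50b/Fam50a and -0.44 for Prps1l1/Prps1, each with every KO array below every WT array (exact permutation p = 0.1, two-sided, and 0.1 adjusted over these 3). Of all ratios of an autosomal to an X-linked tested gene 35.7% separated the groups in this direction. Rbmxl2, Ubl4b and Rpl39 were dim, and Rpl10l, Gykl1, Rpl10, Gk and Ubl4a had no probe set of their own symbol alone.

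The partners of the members in their pathways were taken gene by gene from the probe set of highest mean, and 8 of 94 tested genes were called. Over all 12971 genes so represented 10.3% were called, 7.37% lower and 2.98% higher. Around Pgk2, 3 of 15 genes of lower glycolysis and lactate metabolism were called lower and none was called higher (limma; 5 had an unadjusted p under 0.05 and a higher mean). The 3 are germ cell forms, but 2 further germ cell forms of the list were not called. Ldhc had a log2 fold change of -0.04 (limma, adjusted p = 0.677). Gapdhs had one of -1.25 (limma, adjusted p = 0.0632), with a KO mean of 19.99, under the dim limit. Aldoart1 and Aldoart2, themselves retrogenes of aldolase, had means of 7.36 ± 4.22 and 12.9 ± 5.37 in KO, both under the dim limit, and of 51.5 ± 21.6 and 69.1 ± 29.6 in WT (SD, n = 3 each; limma, adjusted p = 0.00685 and 0.00935). They passed the filter through their WT signal, and the size of the change depends on the pseudocount: it was -2.67 and -2.29 with 1, and -0.94 and -1.02 with 39. With both groups above the limit 1 of the 15 was called. Eno4, a sperm enolase, fell by 0.36 on the log2 scale (limma, adjusted p = 0.0386). The median of the list was -0.10.

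Around Pdha2, 1 of 12 genes of the pyruvate dehydrogenase complex and its regulators was called. Pdk2, a kinase that inhibits the complex, fell from 371.6 ± 20.1 to 257.9 ± 11.6 (SD, n = 3 each), a change of -0.515 on the log2 scale (limma, adjusted p = 0.00685). Pdk3, an X-linked kinase of the same family, had one of 0.27 (limma, adjusted p = 0.0737). The list's median was 0.07. Around Utp14b, 2 of 33 genes of the small subunit processome rose, Nop56 and Wdr3, both by 0.27 (limma, adjusted p = 0.0364 and 0.0388), with a median of 0.10. Utp14b fell while none of these 33 genes was called lower by limma (2 had an unadjusted p under 0.05 and a lower mean).

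Around Cstf2t, 1 of 22 cleavage and polyadenylation genes was called. Papolb, the testis poly(A) polymerase and itself a retrogene, fell from 802.6 ± 16.02 to 575.9 ± 45.3 (SD, n = 3 each), a change of -0.48 on the log2 scale (limma, adjusted p = 0.00549). Cstf1, another subunit of the cleavage stimulation factor, had one of -0.26 (limma, adjusted p = 0.0551). The median was -0.045. Around Cetn1, 1 of 12 centrins and centrin partners was called: Poc1b, a centriole protein gene, fell by 0.63 (limma, adjusted p = 0.0123). Fam161a, a ciliary gene, had a log2 fold change of -0.32 (limma, adjusted p = 0.0832), and the median was -0.10. The 8 calls of these lists became 5 without KO replicate 1, 5 without KO replicate 3 and 2 without WT replicate 1.

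**Figure D4:**
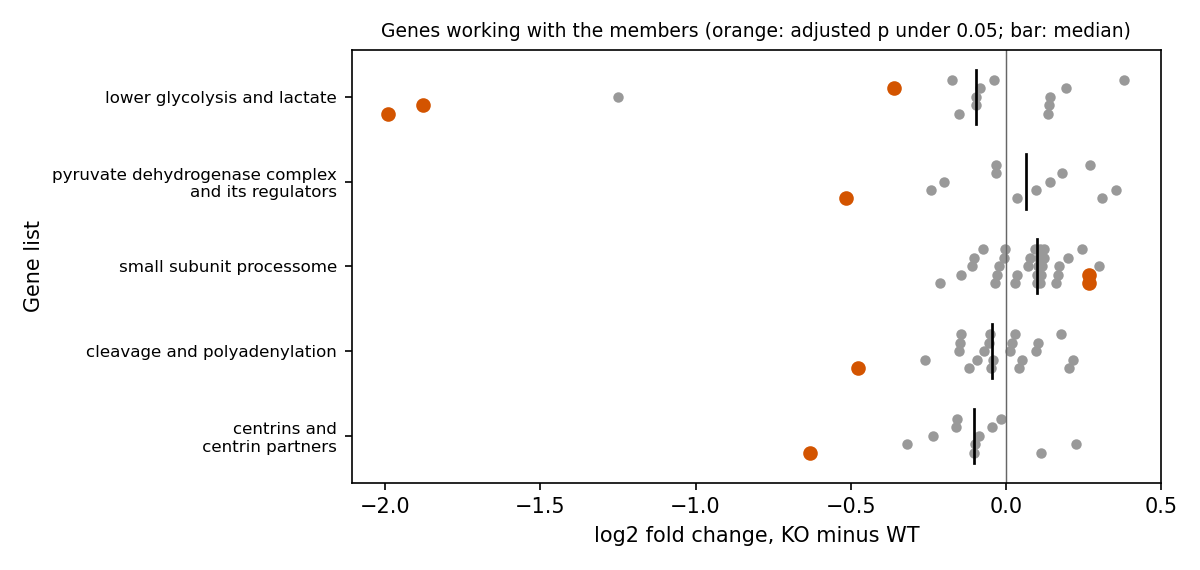
Log2 fold changes (KO minus WT) of the tested genes in 5 lists of pathway partners, 1 point per gene, with orange for the 8 genes at an adjusted p under 0.05 and a bar at each median. The points farthest left, Aldoart1 and Aldoart2, have KO means under the dim limit, so their positions depend on the pseudocount of 7, and Nop56 and Wdr3 are the called genes with higher signals.

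Genes with the most similar pattern over the 6 arrays were found by the root mean square difference of mean-centred log2(signal + 7) values. For Pgk2 these were Ttc25, an outer dynein arm docking gene, at 0.0336 and Aqp11, an aquaporin gene, at 0.0371. For Utp14b they were Atxn7l1 (0.0395) and Ppm1d (0.054), for Cstf2t Spa17 (0.012), a sperm surface protein gene, and Elf2 (0.0172). For Pdha2 they were Mrps31 (0.01) and Orc3 (0.0235), and for Cetn1 Arih2 (0.0104) and Coil (0.0187). None of these 10 lies on the X chromosome, and their log2 fold changes were -0.54 to -0.12. Both follow from the choice. The likeness was taken over the KO and WT arrays together, so the fold changes had to be near those of the retrogenes. Of X-linked probe sets 92.1% had a higher fitted value in KO. These genes are the nearest of many probe sets over 6 arrays, which makes them a description.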

How the data were processed

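Whole-testis RNA of 3 Nxf2 KO and 3 WT samples was measured on 1 array each. Per the labels' protocols, RNA was extracted with Trizol, purified on RNeasy columns and amplified with biotinylated nucleotides. The deposited values are linear signal intensities per probe set, made with MAS5 per the submitters' processing notes (version not given in the sources used here). Trimmed by 2% at both ends, each array averaged 150.0, which is the scale the signals share. Median signals were 37.1 to 40.9. Detection calls and probe sequences were not used here, so hybridisation of a retrogene's RNA to its parent's probes, or the reverse, was not tested.

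Of 45101 probe sets 64 controls were left out. Of the rest 34945 have 1 symbol, 932 several and 9160 none here. Symbols were updated by Entrez identifier (99.4% matched). The 27022 probe sets with a mean at or above the 40th percentile (20.5) were tested with limma 3.58.1 (R 4.3.3, eBayes with trend, log2(signal + 7), two-sided, Benjamini-Hochberg). Ratios were tested by exact permutation. Each member was described by all its probe sets and each listed gene by that of highest mean. Of each pathway list the called genes and those of lowest p, at least 2, were named, with Gapdhs, Ldhc and all measured genes of the other pairs. Members and lists were chosen with earlier results of these data known. Ldhc is in both the glycolysis and the pachytene list.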

Additional observations from a re-analysis of the deposited data

How the results depend on the processing

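The settings tried were quantile normalization, median centring, pseudocounts of 1 and 39, no dim filter or one at the 60th percentile, eBayes without its trend, weights per array, a replicate block, and leaving out single arrays. Over all probe sets the calls lower and higher in KO were 1414 and 610. They were 1382 and 247 with median centring, 817 and 188 without the dim filter, 569 and 174 without the trend, 3446 and 3771 with array weights, and 147 to 1159 and 17 to 388 with 1 array left out. The 3 called member probe sets became 1 without the dim filter, 1 without the trend, 11 with array weights and 1 to 3 with 1 array left out. In the same order the 2 called of the other retrogene pairs became 1, 1, 8 and 0 to 3 (0 by limma without WT replicate 1), and the 8 called pathway genes became 5, 5, 31 and 2 to 7. The cause of these shifts was not tested. The 5 ratio changes stayed negative under all 12 alternatives tried for them. Of these, median centring and the replicate block leave a ratio change as it is by construction, so they are no check on it. For Utp14b/Utp14a, with 1 tested probe set per gene, the same holds for the mean of all tested probe sets of a gene. With 1 array left out they were -0.88 to -0.77 for Pgk2/Pgk1, -0.53 to -0.26 for Pdha2/Pdha1, -0.81 to -0.58 for Utp14b/Utp14a, -0.34 to -0.22 for Cstf2t/Cstf2 and -0.59 to -0.31 for Cetn1/Cetn2. Among the genes of the pairs, values near 0 turned sign for 2: Cstf2 1455523_at to -0.0483 with array weights and to -0.0243 without WT replicate 3 (up to 0.141 with 1 array left out), and Rpl39l to 0.0362 with array weights.

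Samples with the same replicate number deviated together with correlations of 0.0793, 0.457 and 0.266 for numbers 1 to 3. Between different numbers the correlations were -0.334 to 0.112. The only positive one was that of WT replicate 1 with KO replicate 3 (0.112), which was the best for WT replicate 1. The study speaks of 3 pairs of testes but not of what the numbers mark, so the numbers were not taken as pairs. With the replicate block the calls were 2330 lower and 2173 higher over all probe sets. They were 8 among the members, 8 among the other pairs and 16 among the pathway genes. The members called besides the 3 were Cetn1 1453881_x_at, Pgk1 1439435_x_at, Pdha1 1418560_at (adjusted p = 0.0479 by limma) and both Cetn2 probe sets. The block cannot alter the ratio changes, which stayed the same by construction, -0.836 for Pgk2/Pgk1 among them.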
